A study of Mus musculus with 16 samples.

Results

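The genes followed here build the contacts between liver cells: the connexins Gjb1, Gjb2 and Gja1 of gap junctions, the claudins Cldn1, Cldn2 and Cldn3 with Ocln (occludin) and the scaffold Tjp1 (ZO-1) of tight junctions, and Cdh1 (E-cadherin) of adherens junctions. They were chosen, with earlier results of these data known, as a list of 9 gene symbols. The genes were found through the transcript identifiers of the array's probes, with the probe of highest mean signal standing for each gene. Of the 9 genes, 7 were found, out of 31503 features tested in all. These were 17682 genes with a symbol and 13821 further transcript identifiers without one here, each counted as a gene of its own, and "all genes" below means all 31503. Gjb1 and Ocln matched no probe through these identifiers and were not analysed here.

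The study set out to test how the catalytic activity of ceramide synthase 2 bears on liver gene expression. CerS2 is the enzyme that makes very long chain ceramides, the precursors of sphingomyelin and glycosphingolipids. Total RNA from the livers of 16 male mice aged 6 weeks, on a mixed background of 75% C57BL/6 and 25% SV129, was labelled with a single dye and hybridised to Agilent arrays on 2 slides. Each genotype had 4 mice: CerS2 H/A (condition HA), CerS2 Del (condition delHox), CerS2 Flox (condition delneo) and CerS2 WT. What each engineered allele contains is not spelled out in the labels, and Cers2 itself was not analysed here because no probe could be paired with it. H/A is set below against WT, and Del against both Flox and WT.

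Gap junctions are channels through which neighbouring cells exchange ions and small metabolites, and each cell contributes a ring of connexins to a channel. In mouse liver Gjb1 and Gjb2 join hepatocytes, while Gja1 is mainly carried by other liver cells. Tight junctions seal bile canaliculi and bile ducts, with claudins forming the strands and ZO proteins tying them to actin. In adherens junctions, E-cadherin holds neighbouring epithelial cells together through its outer domain and binds catenins inside the cell. E-cadherin in liver is strongest in periportal hepatocytes and in bile duct cells.

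RefSeq promoters, on build GRCm38.p6, were found for 6 of the 7 genes measured, all but Cdh1. The 250 bases before the start of transcription are shown for 4 genes that were called higher in at least 1 comparison below. Whether these genes share a regulator was not tested. Capitals mark each match, on either strand, to 3 short motifs: an AP-1 site (TGACTCA), an E-box that Snail and Zeb repressors can bind (CAGGTG) and a GC box (GGGCGG). Each is written 5′ to 3′ in the direction of transcription.

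Cldn3: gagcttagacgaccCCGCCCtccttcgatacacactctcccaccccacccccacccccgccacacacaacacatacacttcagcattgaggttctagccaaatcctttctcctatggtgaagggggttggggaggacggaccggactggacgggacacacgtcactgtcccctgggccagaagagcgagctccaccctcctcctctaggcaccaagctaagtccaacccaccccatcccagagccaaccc

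Tjp1: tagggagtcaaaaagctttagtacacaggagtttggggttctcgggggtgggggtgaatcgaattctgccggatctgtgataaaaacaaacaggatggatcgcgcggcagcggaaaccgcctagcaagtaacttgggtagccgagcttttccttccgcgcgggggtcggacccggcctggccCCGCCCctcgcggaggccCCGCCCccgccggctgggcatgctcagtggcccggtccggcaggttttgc

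Gja1: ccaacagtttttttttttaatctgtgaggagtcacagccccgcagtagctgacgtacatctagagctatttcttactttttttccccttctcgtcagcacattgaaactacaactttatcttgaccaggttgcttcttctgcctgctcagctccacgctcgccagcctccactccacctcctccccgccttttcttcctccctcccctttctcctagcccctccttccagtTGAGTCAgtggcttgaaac

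Gjb2: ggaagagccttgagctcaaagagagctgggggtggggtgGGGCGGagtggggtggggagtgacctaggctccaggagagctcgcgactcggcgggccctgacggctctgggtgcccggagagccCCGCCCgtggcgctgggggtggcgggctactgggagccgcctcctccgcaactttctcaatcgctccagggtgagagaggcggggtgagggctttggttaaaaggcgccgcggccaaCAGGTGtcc

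The Cldn3 window is chr5:134985964-134986213 on the plus strand, and that of Tjp1 is chr7:65371245-65371494 on the minus strand. The Gja1 window is chr10:56377050-56377299 on the plus strand, and that of Gjb2 is chr14:57104703-57104952 on the minus strand. The GC box was present in 4 of 6 promoters (Gjb2, Cldn1, Cldn3 and Tjp1), against 32.7% of all 32851 promoters in the table. The AP-1 site was present in 1 of 6, beginning 19 bases before the Gja1 start, against 4.46% of all promoters. The E-box was present in 1 of 6, beginning 9 bases before the Gjb2 start, against 17.2% of all promoters. A further motif, the cyclic AMP response element (TGACGTCA), was in 0 of 6, against 1.55% of all promoters. The windows had 60.8% (Cldn3), 63.2% (Tjp1) and 69.2% (Gjb2) G and C bases, that of Gja1 50%, beside a median of 52.4% over all promoters. These are matches of letters only and show no binding.

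All values below are log2 values from the deposited table, in which the sorted values of the 16 arrays differed by at most 0.0063 at any rank, and they are relative to the other genes of the same array. Between 51.6% and 65.2% of spots other than controls were well above background on each array, and 0 of these spots were saturated on any array. The 75th percentile of their signal before scaling was 109.3 to 173.1 in H/A, 91.2 to 114.8 in Del, 86.0 to 111.6 in Flox and 89.7 to 98.8 in WT. All 7 junction genes were well above background on 16 of 16 arrays. The first principal component over all genes, with 43% of the variance, placed H/A and Del livers between -92.6 and -19.02 and Flox and WT livers between 10.95 and 65.16, and WT replicate 2, at 10.95, lay nearest to the mutants. The 9 hepatocyte markers tested were all well above background on all 16 arrays. A gene was called at an adjusted p under 0.05 (limma, Benjamini-Hochberg over all 31503 genes), and "rose" and "fell" are kept for called genes. In RNA of whole liver, fewer cells of a type and less RNA per cell cannot be told apart.

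Cdh1, Cldn3 and Tjp1 were called higher in H/A than in WT livers and in Del than in Flox livers, and Gja1 and Gjb2 were also called higher in Del than in Flox livers. In H/A against WT 3 of 7 junction genes rose and 0 fell, where 7.08% of all genes were called higher, 2.97% lower and 10.0% in either direction. In Del against Flox 5 of 7 rose and 0 fell, where 16.6% of all genes were called higher, 18.1% lower and 34.8% in either direction. In Del against WT 3 of 7 rose and 0 fell, where 8.85% of all genes were called higher, 4.37% lower and 13.2% in either direction, and this comparison shares its WT livers with the first and its Del livers with the second. The median difference of the 7 genes was 0.615 in H/A against WT, 0.89 in Del against Flox and 0.71 in Del against WT, beside medians over all genes of -0.09, -0.14 and -0.11. Of all genes, 6.23% (1963) were called higher in both H/A against WT and Del against Flox, which share no livers.

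Cdh1 (NM_009864.2, chromosome 8), the cell adhesion receptor of epithelial adherens junctions, had the widest differences among the 7. It measured 8.76, 9.50, 9.16 and 9.63 in the 4 H/A livers and 9.96, 9.30, 10.22 and 9.47 in the 4 Del livers. It measured 6.51, 8.04, 6.90 and 6.92 in Flox livers and 7.53, 9.16, 7.32 and 7.29 in WT livers. All Del livers lay above all Flox and WT livers, while WT replicate 2, at 9.16, lay among the H/A livers and the other 3 WT livers lay below them all. Cdh1 averaged 9.74 ± 0.43 in Del and 7.09 ± 0.66 in Flox livers (SD, n = 4 each), which is a log2 rise of 2.64 (1.79 to 3.50 at 95%, adjusted p = 0.000514), or 6.25-fold. Against the WT mean of 7.83 ± 0.90 (SD, n = 4), the rise in Del was 1.91 (1.06 to 2.77, adjusted p = 0.00589), or 3.76-fold. In H/A livers, at 9.26 ± 0.39, the rise over WT was 1.44 (0.58 to 2.29, adjusted p = 0.035), or 2.71-fold. The H/A call was lost, with differences of 1.26 to 1.47 and adjusted p of 0.0742 to 0.111, on leaving out H/A replicate 2, 3 or 4 or WT replicate 1, 3 or 4, and without WT replicate 2 the rise was 1.88. With the slide given in the labels as a block it was 1.35 (adjusted p = 0.0522). Within slide 1 the Cdh1 difference was 0.79 for H/A minus WT, 2.68 for Del minus Flox and 1.61 for Del minus WT, and within slide 2 it was 2.33, 2.75 and 2.36, with a single Del array on slide 1 and a single H/A array on slide 2.

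Tjp1 (XM_006540782.1, chromosome 7), which encodes the ZO-1 scaffold under tight junctions, was 1 of 2 among the 7 that separated mutant from control livers. Of all genes, 4.49% (1414) had all 8 mutant livers above all 8 control livers. Tjp1 measured 6.65, 6.99, 6.75 and 7.05 in H/A livers and 6.51, 6.46, 6.97 and 6.65 in Del livers. It measured 6.00, 5.92, 5.58 and 5.80 in Flox livers and 6.15, 6.41, 5.86 and 5.57 in WT livers. The lowest of the 8 mutant livers, at 6.46, stood just above the highest of the 8 control livers, WT replicate 2 at 6.41. The rise was 0.86 in H/A against WT (0.48 to 1.24, adjusted p = 0.00781), or 1.82-fold, and 0.82 in Del against Flox (0.44 to 1.20, adjusted p = 0.00481), or 1.77-fold. Both calls held on leaving out each of the 16 arrays in turn. In Del against WT it rose by 0.65 (0.27 to 1.03, adjusted p = 0.0263), a call lost without Del replicate 3 or 4 or WT replicate 3 or 4 (0.51 to 0.65, adjusted p 0.05 to 0.0953). Within slide 1 the Tjp1 difference was 0.52 for H/A minus WT, 0.55 for Del minus Flox and 0.23 for Del minus WT, and within slide 2 it was 1.34, 1.00 and 0.98. A second Tjp1 probe was well above background on 1 of 16 arrays and was not used.

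Cldn3 (NM_009902.4, chromosome 5), a sealing claudin of hepatocytes and bile ducts, also separated all 8 mutant from all 8 control livers. It measured 10.75, 10.79, 10.69 and 10.71 in H/A livers and 10.68, 10.75, 11.29 and 10.89 in Del livers. It measured 10.02, 10.36, 9.77 and 9.89 in Flox livers and 10.48, 10.10, 9.94 and 9.98 in WT livers. The H/A livers lay within 0.10 of each other, the narrowest span of the 4 groups, and Del replicate 3 was the highest of all. Cldn3 rose by 0.89 in Del against Flox (0.54 to 1.24, adjusted p = 0.00172), by 0.78 in Del against WT (0.43 to 1.12, adjusted p = 0.00579) and by 0.615 in H/A against WT (0.27 to 0.96, adjusted p = 0.0279), which are rises of 1.85, 1.71 and 1.53 times. The 2 Del calls held with each array left out, while the H/A call was lost without H/A replicate 2, 3 or 4 or WT replicate 3 or 4 (0.55 to 0.63, adjusted p 0.055 to 0.0884). Within slide 1 the Cldn3 difference was 0.46 for H/A minus WT, 0.49 for Del minus Flox and 0.39 for Del minus WT, and within slide 2 it was 0.75, 1.15 and 1.01. Only Cldn3 and Tjp1 of the 7 had every H/A and Del liver above every Flox and WT liver, a pattern that 4.49% of all genes (1414) showed.

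Cldn1 and Cldn2 were called in none of the comparisons when the deposited values of all 16 arrays were fitted without the slide. With scanner files paired by label, Cldn1 passed in Del against Flox after scaling to the 75th percentile (1.04, adjusted p = 0.0426). Left unscaled, those files gave a Cldn2 call in H/A against WT (1.00, adjusted p = 0.0338). Cldn1 (NM_016674.4, chromosome 16), a sealing claudin, measured 7.98, 8.57, 7.97 and 9.23 in H/A livers, 9.28, 8.93, 9.15 and 8.58 in Del livers, 7.97, 8.90, 7.92 and 7.33 in Flox livers and 7.91, 9.21, 7.87 and 8.10 in WT livers. The high arrays were spread over all genotypes, with H/A replicate 4, Flox replicate 2 and WT replicate 2 well above the others of their groups, and the Del livers overlapped both control groups. The Cldn1 difference was 0.16 in H/A minus WT (-0.61 to 0.93, adjusted p = 0.772), 0.95 in Del minus Flox (0.19 to 1.72, adjusted p = 0.0514) and 0.71 in Del minus WT (-0.06 to 1.48, adjusted p = 0.178). The Del minus Flox value passed the threshold without Flox replicate 2, at 1.24 and an adjusted p of 0.021, and also without H/A replicate 4 or WT replicate 2. Without WT replicate 2, Cldn1 passed in Del against WT too (1.02, adjusted p = 0.0453). With the slide by label as a block, Cldn1 rose in Del against Flox by 1.02 (adjusted p = 0.0415). Its Del minus Flox difference was 0.85 within slide 1 (adjusted p = 0.49) and 1.26 within slide 2 (adjusted p = 0.0192). With the Del and Flox arrays fitted alone, Cldn1 (0.955, adjusted p = 0.0443) and Cldn2 (0.66, adjusted p = 0.0403) both passed.

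Cldn2 (XM_006528490.1, chromosome X), which forms a cation- and water-permeable pore rather than a seal, measured 7.61, 8.07, 8.06 and 8.34 in H/A livers and 7.97, 7.51, 8.51 and 7.91 in Del livers. It measured 7.36, 7.40, 7.17 and 7.34 in Flox livers and 7.66, 8.28, 6.72 and 7.52 in WT livers. The Flox livers were close together, spanning 0.23, and all lay below every Del liver, while the WT livers spanned 1.56 and overlapped both mutant groups. The Cldn2 difference was 0.47 in H/A minus WT (-0.11 to 1.05, adjusted p = 0.231), 0.66 in Del minus Flox (0.08 to 1.24, adjusted p = 0.0679) and 0.43 in Del minus WT (-0.15 to 1.01, adjusted p = 0.266). Without WT replicate 2 it passed in H/A against WT (0.72, adjusted p = 0.0488) and in Del against Flox (0.66, adjusted p = 0.0372), and it also passed in Del against Flox without WT replicate 3 or Del replicate 2. Cldn2 had 4 probes, and the other probe well above background on 16 of 16 arrays (NM_016675.4) gave smaller differences, -0.015 in H/A minus WT and 0.27 in Del minus Flox.

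**Figure D1:**
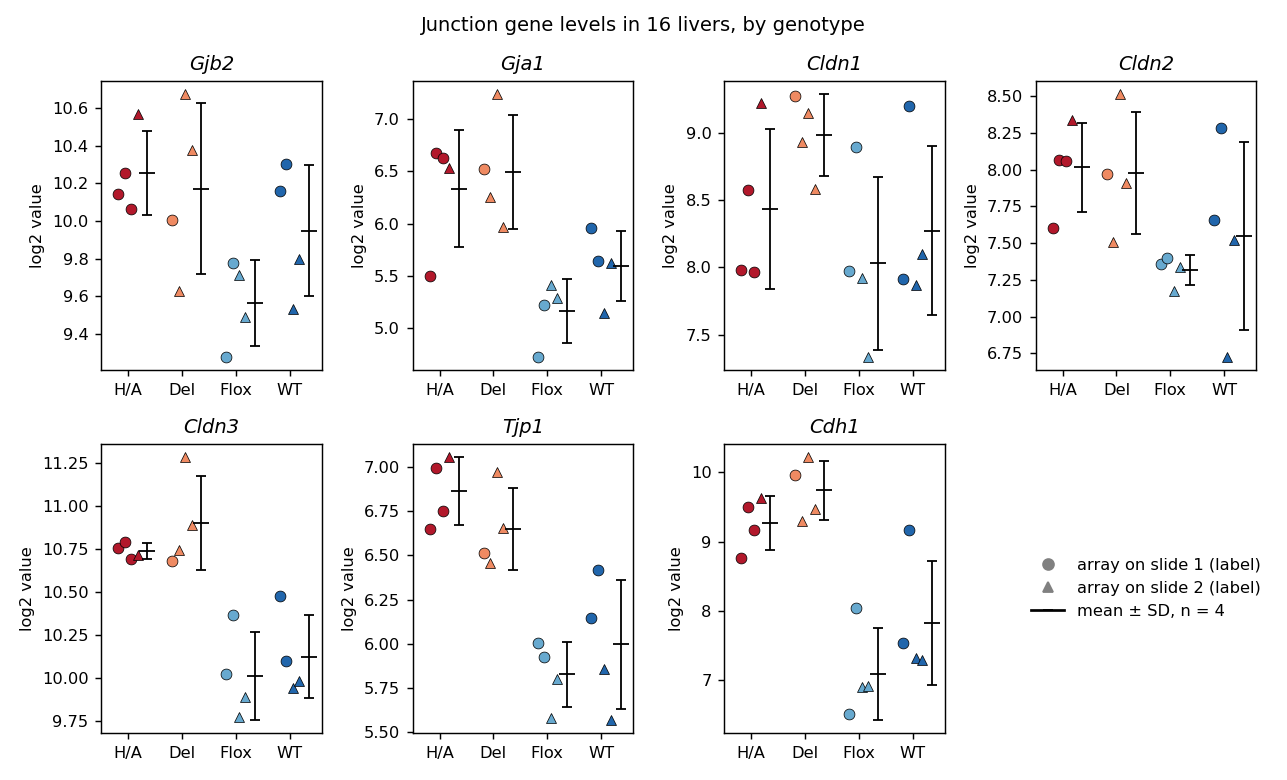
Log2 values of the 7 junction genes (1 panel each, y axis) in every liver, by genotype (x axis), with circles for arrays on slide 1, triangles for slide 2, and the bar giving the mean ± SD of 4 livers. Every H/A and Del liver lies above every Flox and WT liver for Cldn3 and Tjp1, and WT replicate 2 stands at 9.16 for Cdh1 beside the other WT livers at 7.29 to 7.53.

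Gja1 (NM_010288.3, chromosome 10), which encodes connexin 43, measured 5.50, 6.68, 6.63 and 6.53 in H/A livers and 6.52, 6.25, 7.24 and 5.97 in Del livers. It measured 4.72, 5.23, 5.41 and 5.29 in Flox livers and 5.96, 5.64, 5.15 and 5.62 in WT livers. Every Del liver lay above every Flox liver and, narrowly (5.97 beside 5.96), above every WT liver, while H/A replicate 1, at 5.50, lay among the WT livers and the other 3 H/A livers lay above them. Gja1 rose by 1.33 in Del against Flox (0.71 to 1.96, adjusted p = 0.00521), or 2.52-fold, and the call held with each array left out. The difference was 0.90 in Del minus WT (0.28 to 1.53, adjusted p = 0.0545) and 0.74 in H/A minus WT (0.12 to 1.37, adjusted p = 0.103), neither of which was called. Without H/A replicate 1 both passed, at 1.02 for H/A minus WT (adjusted p = 0.0238) and 0.90 for Del minus WT (adjusted p = 0.0253), and Del minus WT also passed without Del replicate 4 (1.08, adjusted p = 0.0354). Within slide 1 the Gja1 difference for Del minus Flox was 1.55 and within slide 2 it was 1.14.

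Gjb2 (NM_008125.3, chromosome 14), which encodes connexin 26 of hepatocytes, measured 10.14, 10.25, 10.06 and 10.57 in H/A livers and 10.01, 9.63, 10.68 and 10.38 in Del livers. It measured 9.28, 9.78, 9.71 and 9.49 in Flox livers and 10.16, 10.30, 9.53 and 9.80 in WT livers. All 4 groups overlapped except H/A with Flox, and Del replicate 2, at 9.63, lay among the Flox livers. Gjb2 rose by 0.61 in Del against Flox (0.14 to 1.08, adjusted p = 0.0445), or 1.52-fold. This call held in 7 of the 16 fits with 1 array left out and was lost without any one of Del replicate 3 or 4, Flox replicate 1, 3 or 4, H/A replicate 1 or 2, or WT replicate 1 or 4 (0.44 to 0.66, adjusted p 0.0501 to 0.155). The difference was 0.31 in H/A minus WT (-0.16 to 0.78, adjusted p = 0.333) and 0.22 in Del minus WT (-0.25 to 0.69, adjusted p = 0.475). Within slide 1 the Gjb2 difference for Del minus Flox was 0.48 and within slide 2 it was 0.63.

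The number of junction genes with every liver of the first-named genotype above every liver of the second was 2 of 7 in H/A against WT (Cldn3 and Tjp1), where 9.02% of all genes showed this. It was 5 of 7 in Del against Flox (Gja1, Cldn2, Cldn3, Tjp1 and Cdh1), where 15.9% of all genes did. In Del against WT it was 4 of 7 (Gja1, Cldn3, Tjp1 and Cdh1), where 10.6% of all genes did. In Flox against WT and H/A against Del it was 0 of 7, where 2.08% and 1.56% of all genes did. With WT replicate 2 left out, the calls were 4 of 7 in H/A against WT, 7 of 7 in Del against Flox and 4 of 7 in Del against WT, and 25.5%, 39.0% and 22.8% of all genes were then called in these comparisons in that order.

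**Figure D2:**
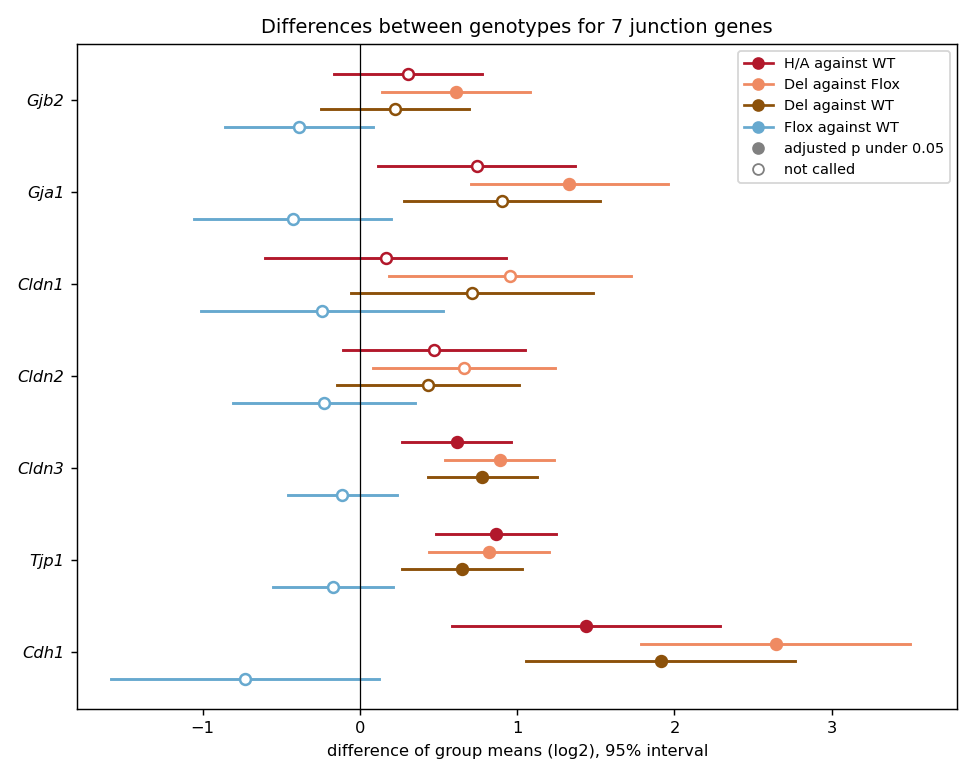
Difference of group means in log2 units (x axis) with its 95% interval for 7 junction genes (rows) in 4 comparisons, with filled points for an adjusted p under 0.05. All 7 points lie above 0 in the 3 comparisons of a mutant with a control, and all 7 lie below 0, none of them called, in Flox against WT.

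The 2 control lines and the 2 mutants were also set against each other. In Flox against WT 0 of 7 junction genes were called (limma, adjusted p 0.802 to 0.894, and 0 at an unadjusted p under 0.05), where 0.0222% of all genes were called in either direction, 0.00317% higher and 0.019% lower. All 7 differences were below 0, from -0.11 for Cldn3 (-0.46 to 0.23) to -0.73 for Cdh1 (-1.59 to 0.12), so that the Del minus Flox value of each gene was larger than its Del minus WT value. In H/A against Del 0 of 7 were called (adjusted p 0.748 to 0.986, and 0 at an unadjusted p under 0.05), where 0.0127% of all genes were called, 0.00952% higher and 0.00317% lower. The intervals of that comparison were wide, such as -1.33 to 0.38 for Cdh1 and -1.32 to 0.22 for Cldn1. The difference between the lines, H/A minus WT less Del minus Flox, was called for 0 of 7 junction genes and for 0.00317% of all genes. For Cdh1, with 2.64 in Del minus Flox and 1.44 in H/A minus WT, it was -1.21 (-2.41 to 0.00, adjusted p = 0.717). For Tjp1 it was 0.04 (-0.49 to 0.58, adjusted p = 0.98).

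The proteins that work with E-cadherin were taken from a further list. In the adherens junction list 6 of 16 genes tested rose in H/A against WT, 10 of 16 in Del against Flox and 8 of 16 in Del against WT, and 0 fell. Of all genes, 7.08%, 16.6% and 8.85% were called higher in these comparisons in that order, and 2.97%, 18.1% and 4.37% lower. Ctnnb1 (beta-catenin), which binds the tail of E-cadherin and also carries Wnt signals, rose by 0.66 in H/A against WT (adjusted p = 0.0224) and by 1.13 in Del against Flox (adjusted p = 0.000432). Ctnna1 (alpha-catenin), the link to actin, rose by 0.73 and 1.00 in these comparisons, and Ctnnd1 (p120 catenin), which keeps cadherins at the surface, by 0.67 and 0.94. Jup (plakoglobin) rose by 0.70 and 0.44, Lmo7, an actin-linked junction protein, by 1.09 and 0.98, and Vcl (vinculin), recruited where junctions carry tension, by 0.77 and 1.53. Nectin1, a second class of adhesion receptor, rose by 0.98 in Del against Flox and by 1.00 in Del against WT. The median difference of the list was 0.34 in H/A minus WT and 0.49 in Del minus Flox.

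Of the desmosome genes 3 of 7 tested were called higher in H/A against WT, 5 of 7 in Del against Flox and 5 of 7 in Del against WT, and 0 lower. Beside these counts, 7.08%, 16.6% and 8.85% of all genes were called higher and 2.97%, 18.1% and 4.37% lower. Ppl (periplakin), which ties desmosomes to keratin filaments, averaged 8.61 ± 0.53 in H/A and 5.71 ± 0.68 in WT livers (SD, n = 4 each), a rise of 2.90 (2.13 to 3.67, adjusted p = 0.000316). It averaged 8.70 ± 0.32 in Del and 5.77 ± 0.66 in Flox livers, a rise of 2.93 (2.16 to 3.70, adjusted p = 0.000136). Perp, a desmosomal membrane protein, rose by 0.69 in H/A against WT and 0.90 in Del against Flox, and Pkp2 (plakophilin 2) by 0.68 and 0.82. Dsg2, a desmosomal cadherin, rose by 0.94 in Del against Flox.

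Of the tight junction proteins other than claudins, the calls in H/A against WT were 4 higher and 0 lower of 24, in Del against Flox 12 higher and 1 lower, and in Del against WT 8 higher and 0 lower. The shares of all genes were 7.08% higher and 2.97% lower, then 16.6% and 18.1%, then 8.85% and 4.37%. Ildr2, an angulin of the corners where several cells meet, averaged 8.76 ± 0.36 in H/A and 6.55 ± 0.54 in WT livers (SD, n = 4 each), a rise of 2.22 (1.67 to 2.77, adjusted p = 0.000197). In Del against Flox it rose by 2.35 (1.80 to 2.91, adjusted p = 6.23e-05). Lsr, a second angulin that is also a lipoprotein receptor, rose by 0.97 and 1.17, F11r (junctional adhesion molecule A) by 1.12 and 1.45, and the polarity protein gene Pard6b by 0.98 and 1.27, in H/A against WT and Del against Flox. Cxadr, an adhesion molecule that serves as a virus receptor, rose by 1.91 in Del against Flox and 1.65 in Del against WT. The gene that fell was Cgn (cingulin), a cytoplasmic plaque protein, by 0.47 in Del against Flox.

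The claudins and connexins beyond the list of 9 were counted in the same way. Of 14 other claudins tested 0 rose in any comparison, 0 fell in H/A against WT, 4 fell in Del against Flox and 3 fell in Del against WT. Of all genes, 2.97%, 18.1% and 4.37% were called lower in the last 3 of these, and 7.08%, 16.6% and 8.85% higher. Cldn4, a sealing claudin, averaged 7.80 ± 0.32 in Del and 10.39 ± 0.39 in Flox livers (SD, n = 4 each), and so fell by 2.59 in Del against Flox (95% interval of the log2 difference -3.61 to -1.57, adjusted p = 0.00187). Against WT livers, at 9.74 ± 0.91, Cldn4 fell by 1.94 in Del (adjusted p = 0.015). In H/A minus WT the Cldn4 difference was -0.70 (-1.72 to 0.31, adjusted p = 0.306) and was not called. Cldn19 and Cldn23 fell by 0.44 and 0.52 in Del against Flox, Cldn9 fell by 0.46 in Del against WT, and Cldn22, not well above background in any Del liver, was at least 1.59-fold lower in Del than in Flox livers.

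Of 13 other connexins and pannexins, H/A against WT had 1 higher and 0 lower, Del against Flox 1 higher and 1 lower, and Del against WT 1 higher and 0 lower. All genes had 7.08% higher and 2.97% lower, 16.6% and 18.1%, and 8.85% and 4.37%, in that order. The gene that rose was Panx1 each time, which forms a membrane channel that releases ATP. Panx1 averaged 6.09 ± 0.97 in H/A and 4.27 ± 0.23 in WT livers (SD, n = 4 each), a rise of 1.82 (0.98 to 2.66, adjusted p = 0.0104). It averaged 6.45 ± 0.70 in Del and 4.42 ± 0.21 in Flox livers, a rise of 2.04 (1.19 to 2.88, adjusted p = 0.00251). Panx2 fell by 0.40 in Del against Flox. No called gene of these lists changed sign when the arrays were scaled to their 75th percentile, left unscaled or corrected with normexp, but the median of the other connexins and pannexins in H/A minus WT was -0.28 as deposited and 0.18 unscaled, and that of the other claudins was -0.18 and 0.30.

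**Figure D3:**
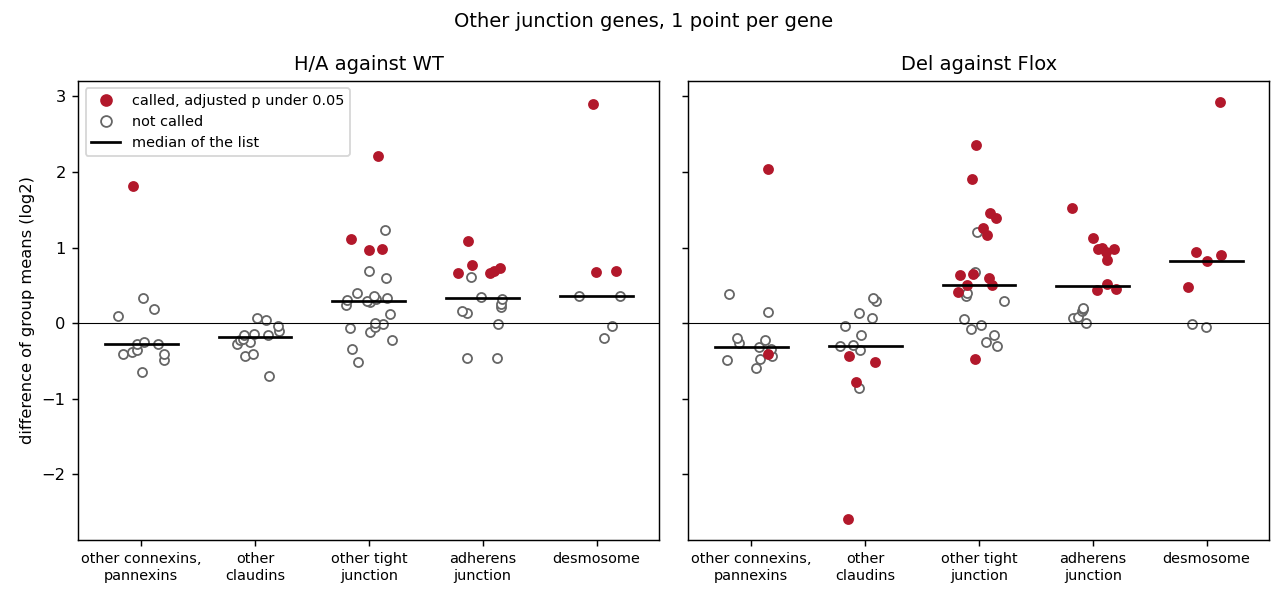
Difference of group means in log2 units (y axis) for genes of 5 further junction lists (x axis), H/A against WT on the left and Del against Flox on the right, 1 point per gene and filled where the adjusted p was under 0.05. Called adherens junction and desmosome genes all lie above 0 in both panels, and called genes among the other claudins all lie below 0.

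**Figure D4:**
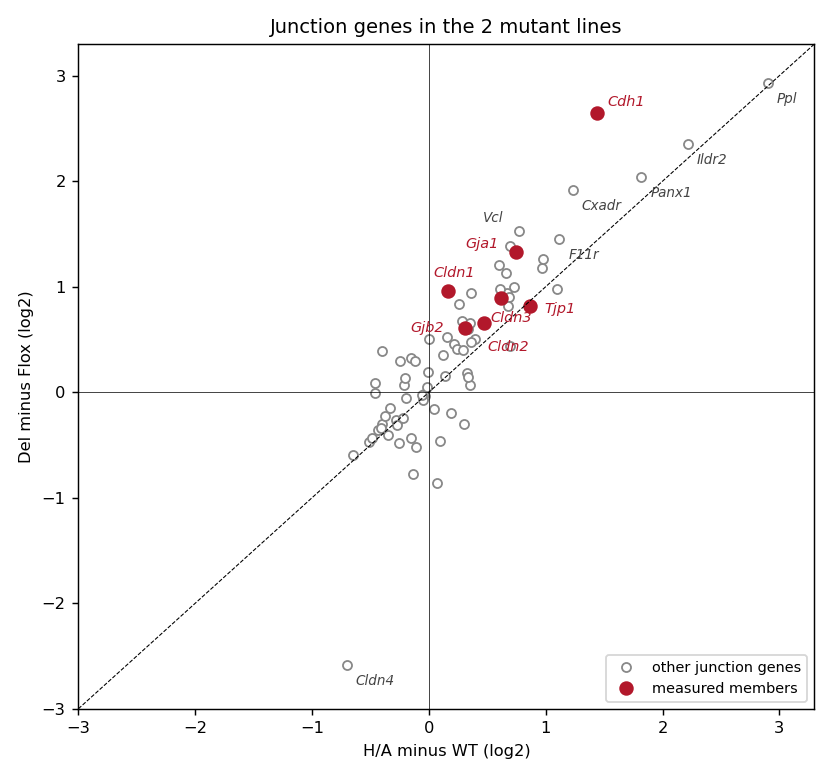
H/A minus WT (x axis) against Del minus Flox (y axis), both in log2 units and with no liver in common, for 7 junction genes (filled) and the genes of the 5 further lists (open), with a dashed line where both are equal. Cdh1 lies at 1.44 and 2.64 and Tjp1 at 0.86 and 0.82, and Cldn4 is the open point at -2.59 on the y axis.

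Among repressors of Cdh1 transcription 1 of 5 genes tested rose in H/A against WT, 2 in Del against Flox and 1 in Del against WT, and 0 fell. The shares of all genes called higher were 7.08%, 16.6% and 8.85%, and those called lower 2.97%, 18.1% and 4.37%. Snai2 (Slug) rose by 0.94 in H/A against WT (adjusted p = 0.0106) and by 0.67 in Del against Flox (adjusted p = 0.0232). Zeb1 rose by 0.63 in Del against Flox.

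Some markers of other liver cells moved with genotype, and their part in the junction results was not tested. Called higher in H/A against WT, Del against Flox and Del against WT were 7.08%, 16.6% and 8.85% of all genes. Called lower were 2.97%, 18.1% and 4.37%. For bile duct cells, which also carry Cdh1 and claudins, 1 of 8 markers tested rose in H/A against WT (Prom1, by 2.27), 2 rose in Del against Flox (Prom1 by 2.03 and Sox9 by 1.09), and 1 rose in Del against WT. Their mean log2 level was 5.81 to 6.49 in H/A, 6.06 to 7.01 in Del, 5.73 to 6.01 in Flox and 5.59 to 6.20 in WT livers. The keratin of bile ducts, Krt19, averaged 5.18 ± 0.40 in H/A, 5.12 ± 0.92 in Del, 4.73 ± 0.40 in Flox and 4.89 ± 0.60 in WT livers (SD, n = 4 each) and was not called. Of 9 Kupffer cell and macrophage markers 8 rose in H/A against WT, 6 rose and 1 fell in Del against Flox and 6 rose in Del against WT, with a mean level of 7.77 to 9.04 in H/A, 7.91 to 8.20 in Del, 6.86 to 7.17 in Flox and 6.44 to 7.39 in WT livers. Of 7 mitosis genes 6 rose in each of these 3 comparisons, with a mean level of 6.60 to 7.79 in H/A, 7.22 to 7.99 in Del, 4.61 to 5.75 in Flox and 4.31 to 5.35 in WT livers. Only 3 of the 7 were well above background on all 16 arrays. Aurkb was so on 3 H/A, 4 Del, 0 Flox and 0 WT arrays, and Ccnb1 on 4, 4, 1 and 0. The control levels thus rest partly on values near background. Aurkb passed the filter only through the mutants and Ccnb1 mainly through them. Both are among the 6 that rose, and the filter favoured such rises.

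Stellate cells and fibroblasts can express Gja1. Of their 10 markers 0 rose in H/A against WT, 5 rose in Del against Flox, where 16.6% of all genes were called higher, and 0 rose in Del against WT. Their mean level was 8.02 to 8.40 in H/A, 8.12 to 8.70 in Del, 7.57 to 7.94 in Flox and 7.72 to 8.43 in WT livers. Of 10 sinusoidal endothelial markers 2 fell in Del against Flox, where 18.1% of all genes were called lower, and 0 were called in H/A against WT or Del against WT. Of all genes, 7.08% were called higher and 2.97% lower in H/A against WT, and 8.85% and 4.37% in Del against WT. Of 7 lymphocyte markers 2 rose in H/A against WT, Ptprc by 0.90 and Gzma by 2.09. In Del against Flox 0 were called, and in Del against WT 1 rose (Ptprc, by 0.87). The median difference of the 7 was 0.10 in H/A minus WT, -0.27 in Del minus Flox and -0.12 in Del minus WT. Gzma, 1 of the 2 in H/A against WT, was well above background on 3 H/A and 0 WT arrays. Of 9 hepatocyte markers Cps1 rose and Serpina1c fell in H/A against WT and in Del against Flox, and Serpina1c fell in Del against WT, while of 4 erythroid markers 1 fell in H/A against WT.

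Over the 16 livers, the named genes whose log2 values correlated most closely with each called junction gene were sought among 17681 genes, as a description, since the livers fall into mutants and controls. For Cdh1 they were Smco4 (Pearson r = 0.98), Arpin, an inhibitor of the Arp2/3 actin nucleator (0.97), and Rnf11 (0.97). For Tjp1 they were the peptidase genes Pepd (0.98) and Prcp (0.97) and Arpc1a, a subunit of the Arp2/3 complex (0.97). For Cldn3 they were Zfp414 (0.97), Hsdl1 (0.96) and Kank2 (0.95), and for Gja1 Mfsd6 (0.96), Utp20 (0.95) and Myrf (0.95). For Gjb2 they were Ccdc90b (0.94), Zbtb33 (0.94) and Nxt1 (0.93).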

How the data were processed

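Liver RNA of 16 mice was measured on 1-colour Agilent arrays. The deposited table is on the log2 scale, and its 16 columns held nearly the same set of values (median 4.36, at most 0.0063 apart at any rank). The authors' method of scaling is not given in the sources used here. The deposited scanner files hold spot intensity, background-subtracted by Agilent Feature Extraction per the file headers, and the submitters' processing notes name Feature Extraction 11 and Partek. For 6 of 16 samples the listed scanner file lay on another slide than the label, and all 16 columns of the table matched best the file at the labelled slide and position (r 0.885 to 0.996, against -0.30 to 0.168 for the 6 listed files). By the labels, slide 1 held 3 H/A, 1 Del, 2 Flox and 2 WT arrays, and slide 2 held 1, 3, 2 and 2.

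Of 60037 probes, 37841 were well above background on at least 4 arrays, and 36264 could be named through GRCm38.p6 transcript identifiers. The probe with the highest mean stood for each gene. The 31503 features, called genes here (17682 with a symbol), were fitted in 1 model of 4 groups with limma 3.58.1 in R 4.3.3, and the procedure was tested on simulated data. Intervals are 95% and unadjusted. The number of arrays limits the precision. The junction genes and all lists were chosen with earlier results of these data known. The junction genes are all named. From each further list, called genes are named, beginning with the 4 of smallest p per comparison, and the 3 genes of highest r per called junction gene. Replicate numbers were given in accession order and pair no samples. The alternatives were the values from the scanner files, scaling, background correction, the filter, slide blocks, each slide alone, 2 groups alone, the mean of all probes and each array left out. Some members of the further lists are not reported here.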

Additional observations from a re-analysis of the deposited data

Results flagged for a closer look

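In 2 of 28 gene and genotype groups of 4 livers, 1 liver stood far from the other 3, as measured by its gap to the nearest liver over the whole range of the group. For Gja1 this was H/A replicate 1, the lowest of 4 at 5.50 beside 6.53 to 6.68, with a gap of 0.876 of the range. For Cdh1 it was WT replicate 2, the highest of 4 at 9.16 beside 7.29 to 7.53, with a gap of 0.869 of the range. Chance alone marks about 1 in 20 such groups. Both livers also lay nearest to the opposite genotypes on the first principal component, at -19.02 for H/A replicate 1 and 10.95 for WT replicate 2.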

How the results depend on the processing

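No junction gene called in a comparison changed sign in it under the 27 alternatives, but several calls were lost, and the cause was not tested. No paired analysis was possible because the replicate numbers were given in accession order and mark no shared animal or batch. Below, counts are given for H/A against WT, Del against Flox, Del against WT, Flox against WT and H/A against Del in that order.

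With the scanner files as listed, whose slides go against the labels of 6 samples, 0 junction genes were called in every comparison, and 5, 0, 0 and 0 of all genes in the first 4. There the difference was -0.086 for Gjb2, -0.022 for Gja1, -0.49 for Cldn1 and -0.062 for Cldn2 in H/A minus WT, -0.14 for Cldn2 in Del minus WT and -0.17 for Gjb2 in H/A minus Del. Without scaling, 6, 4, 2, 0 and 0 junction genes were called, beside 3, 5, 3, 0 and 0 as deposited. Of all genes, 9537, 4363, 2242, 4 and 34 were called. Of these calls 98.7%, 78.0% and 80.5% were higher in the first 3, where the deposited values gave 70.5%, 47.8% and 66.9%, and the median of all genes in H/A minus WT was 0.37 in place of -0.09. Unscaled, the H/A minus Del difference was 0.26 for Gja1 and 0.27 for Cldn3. With normexp, with the 75th percentile of files paired by label, with the slide by label as a block and with 2 groups alone, 0 of all genes were called in H/A against Del, and 1 without the filter.

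With the slide by label as a block, Cdh1 in H/A against WT was 1.35 (adjusted p = 0.0522) and Cldn2 in H/A minus Del was -0.052. With the slide of the listed files as a block, which overlaps with genotype, 1 junction gene was called in H/A against WT and 1 in Del against WT, beside 2108, 1265, 3 and 0 of all genes in H/A against WT, Del against WT, Flox against WT and H/A against Del, and Tjp1 was -0.055 in H/A minus Del. Within slide 1, 0 junction genes and 14, 160, 141, 0 and 75 of all genes were called. Within slide 2, 1, 4, 3, 0 and 0 junction genes and 627, 3511, 2551, 0 and 262 of all genes were called. Signs turned within slide 1 for Gjb2 (-0.079), Cldn1 (-0.39) and Cldn2 (-0.057) in H/A minus WT, Gjb2 (-0.22) in Del minus WT, and Cldn2 (-0.063) and Cldn3 (0.069) in H/A minus Del. They turned within slide 2 for Cldn2 (0.13) in Flox minus WT, and Gja1 (0.044) and Cldn1 (0.34) in H/A minus Del. With 2 groups alone, 1827 of all genes were called in H/A against WT and 2 in Flox against WT. With the mean of all probes, Cldn2 was -0.14 in H/A minus Del.

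Leaving out each array gave 1 to 4, 4 to 7, 2 to 4, 0 and 0 junction genes, and 1452 to 8020, 5100 to 12289, 2190 to 7177, 3 to 7 and 0 to 7 of all genes, with 8020 and 7177 reached without WT replicate 2 and 5100 and 2190 without Del replicate 3. The differences that turned were -0.10 to 0.47 for Cldn1 in H/A minus WT, -0.53 to 0.069 for Cldn1, -0.50 to 0.016 for Cldn2 and -0.23 to 0.0046 for Cldn3 in Flox minus WT, and -0.098 to 0.25 for Gjb2, -0.34 to 0.12 for Gja1 and -0.12 to 0.22 for Cldn2 in H/A minus Del. None of these was called.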
